A study of Mus musculus with 2 samples.

Results

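The genes described here are the caspase genes Casp1, Casp2, Casp4, Casp6, Casp8, Casp9 and Casp12 together with Apaf1, 8 of the 34745 genes in the deposited tables, chosen by their symbols. They were measured by RNA-seq in LSKs (lineage-negative, Sca1+, c-Kit+ cells of the bone marrow, the compartment of hematopoietic stem and progenitor cells) of Scl/tTA-BA mice on the C57BL/6 background. These mice carry the transactivator tTA under the Scl promoter and a BCR/ABL (BA) transgene, which is switched on in stem and progenitor cells when doxycycline is withdrawn. Week-0 mice were still on doxycycline and week-3 mice were 3 weeks after withdrawal, and both carried the same transgenes. The age of the mice is not given in the sources used here. Each time point had 1 library, in which the LSKs of 3 mice were pooled, so the spread between mice is unknown and no difference below has a replicate check. Reads on genes numbered 6356164 in the week-0 library and 3886695 in that of week-3. Read counts are as the authors deposited them, and so are the FPKM values, which scale the reads by exon length and library size. BA expression itself was not analysed here.

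Caspases are proteases that cut their substrates after aspartate, and they are made as inactive precursors. Initiator caspases are activated on protein platforms. The apoptosome, which Apaf1 forms once cytochrome c has left the mitochondria, activates Casp9, death receptors activate Casp8, and the PIDDosome activates Casp2. The initiators cleave executioner caspases such as Casp6, whereas the inflammatory caspases Casp1 and Casp4 cleave gasdermin D and Casp1 also matures interleukins, which couples them to inflammation. In stem and progenitor cells of the blood, loss by apoptosis is one of the limits on the size of the stem cell pool.

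The label was checked against marker genes. Kit and Ly6a, which encode the sorting markers c-Kit and Sca1, were present in both libraries (FPKM 16.9 and 19.8 at week-0, 11.5 and 14.8 at week-3). The summed FPKM of 8 LSK markers, led by Flt3 and Cd34, was 300.4 at week-0 and 115 at week-3. Markers of other cell types differed between the libraries. The summed FPKM of 9 neutrophil markers, led by Elane and Mpo, was 1651 and 8166, that of 8 mast cell and basophil markers, led by Tpsb2 and Cpa3, 136 and 3190, and that of 9 macrophage and monocyte markers, led by Ly6c2 and Cd14, 85.7 and 236. Most of this last difference was Ly6c2 (FPKM 40.3 and 186), whereas the ratio of week-3 over week-0 for Cd14 was 0.576 (counting interval 0.453 to 0.728). In the other direction, 8 B and plasma cell markers, led by Igkc and Ighm, summed to 10200.3 and 633, 8 erythroid markers, led by Hbb-bt and Hbb-bs, to 1099 and 89.98, and 8 dendritic cell markers, led by Cd74 and Flt3, to 458 and 98.8. Flt3 is summed in both the LSK and the dendritic cell list. Some markers went against the sum of their list. The ratio was 1.78 for Irf8 of the dendritic cell list (counting interval 1.63 to 1.95). It was 2.45 for Slamf1 of the LSK list (1.03 to 6.11, from 10 and 15 reads). For Gata2 of the mast cell and basophil list it was 0.690 (0.610 to 0.779). The 8 T and NK cell markers summed to 285 and 424, nearly all of it Nkg7 (279 and 422), while Trac, the next in level, was lower past the limit explained below (4.08 and 1.23). Among these markers, Marco had 0 reads in both libraries, Tpsb2 had 0 at week-0, and Cd3e, Ncr1 and Cd8a had 0 at week-3. The part of these shifts in any result below was not tested, and in such bulk samples fewer cells of a type cannot be told apart from less RNA per cell.

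Casp8, Casp2, Casp6 and Apaf1 had similar levels at both time points, with ratios of week-3 over week-0 between 0.892 and 1.08. Casp4 was 0.498 times as high at week-3, Casp1 was 1.68 times as high and Casp9 2.03 times. A gene is called past the limit here when its ratio was at least 2 or at most 0.5 and its 95% interval did not include equal levels. The interval is the exact Clopper-Pearson interval of the week-3 share of a gene's scaled reads, turned into a ratio. It covers counting error only, and treats every read as independent. Amplified cDNA gives several reads per molecule, so the interval may be too narrow even for counting error. Of the 8 genes, all of which had at least 10 reads over both libraries, 1 was higher past the limit (Casp9) and 1 was lower (Casp4). Over the 13689 genes with at least 10 reads, 10.5% were higher and 14.9% lower past the same limit. Without the limit on the size, the intervals of 2 of the 8 genes (Casp1 and Casp9) lay above equal levels, as for 31.7% of all genes, and that of 1 (Casp4) lay below, as for 27.3% of all genes. The median log2 ratio of the 8 genes was 0.05 (-0.06 with TMM, which scales by the bulk of the genes in place of all reads), and that of all genes tested was also 0.05. The 8 genes together took 291 RPM (reads scaled to a library of 1000000) at week-0 and 277 at week-3.

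**Figure D1:**
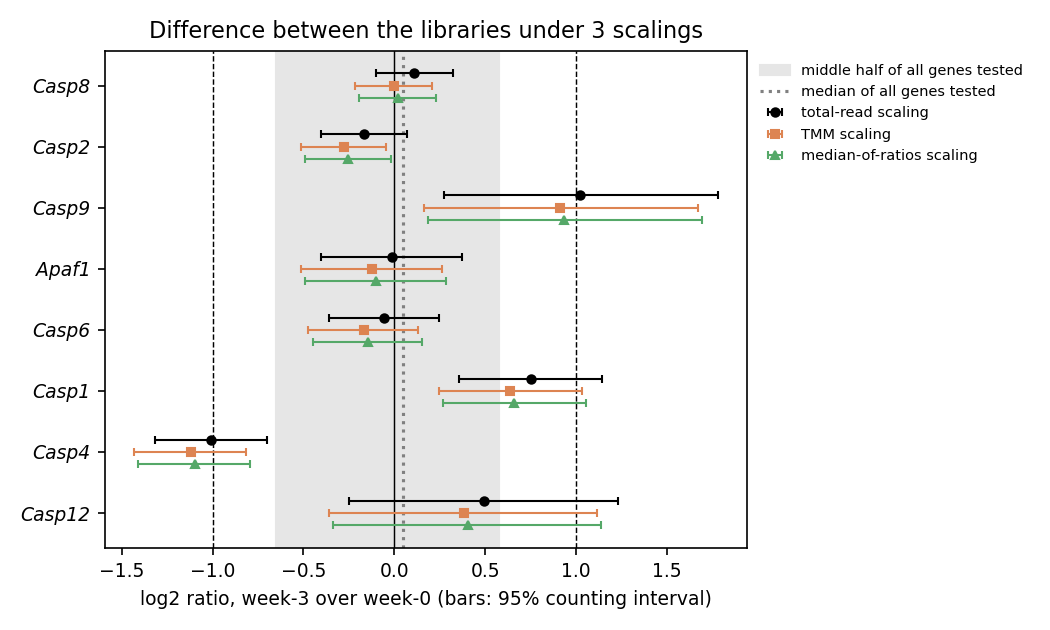
Log2 ratio of week-3 over week-0 (x axis) for the 8 genes under scaling by total reads, TMM or median-of-ratios, with bars for the 95% counting interval. The dashed lines mark a ratio of 2 and of 0.5, the grey band spans the quartiles of the 13689 genes tested and the dotted line their median. Casp4 lies at or beyond the lower dashed line under each scaling, and Casp9 lies beyond the upper one only with scaling by total reads.

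Casp1, Casp4 and Casp12 lie side by side on the plus strand of chromosome 9 of GRCm38. Casp1 (ENSMUSG00000025888) runs from 5298517 to 5307265, Casp4 (ENSMUSG00000033538) from 5308828 to 5336783 and Casp12 (ENSMUSG00000025887) from 5345430 to 5373032. The gap between Casp1 and Casp4 is 1562 bases and that between Casp4 and Casp12 is 8646 bases, and GENCODE M21 has no other gene that overlaps them. Because these neighbours went in different directions, their start regions are shown, with that of Casp9 for contrast. The sequences are the RefSeq promoters on GRCm38.p6, from 250 bases before the transcription start to 50 bases after it, 5' to 3' on the plus strand. Casp1 is chr9:5298267-5298566, Casp4 chr9:5308599-5308898, Casp12 chr9:5345226-5345525 and Casp9 chr4:141793362-141793661. Capitals mark matches to the motifs described below.

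Casp1: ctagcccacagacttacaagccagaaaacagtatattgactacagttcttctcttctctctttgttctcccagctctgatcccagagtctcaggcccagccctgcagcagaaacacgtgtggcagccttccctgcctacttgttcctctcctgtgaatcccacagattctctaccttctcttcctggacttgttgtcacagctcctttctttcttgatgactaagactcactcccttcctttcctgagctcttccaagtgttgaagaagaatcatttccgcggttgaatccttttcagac

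Casp4: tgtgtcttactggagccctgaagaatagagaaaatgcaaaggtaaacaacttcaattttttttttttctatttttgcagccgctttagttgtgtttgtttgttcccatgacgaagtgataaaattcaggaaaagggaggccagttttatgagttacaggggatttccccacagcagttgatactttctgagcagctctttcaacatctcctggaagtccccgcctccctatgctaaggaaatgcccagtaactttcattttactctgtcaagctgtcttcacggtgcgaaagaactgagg

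Casp12: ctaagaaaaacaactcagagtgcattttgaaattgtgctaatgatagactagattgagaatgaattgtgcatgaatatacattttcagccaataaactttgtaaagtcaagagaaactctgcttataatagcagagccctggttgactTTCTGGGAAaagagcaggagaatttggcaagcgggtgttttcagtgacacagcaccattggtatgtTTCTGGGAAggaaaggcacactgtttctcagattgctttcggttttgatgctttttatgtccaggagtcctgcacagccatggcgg

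Casp9: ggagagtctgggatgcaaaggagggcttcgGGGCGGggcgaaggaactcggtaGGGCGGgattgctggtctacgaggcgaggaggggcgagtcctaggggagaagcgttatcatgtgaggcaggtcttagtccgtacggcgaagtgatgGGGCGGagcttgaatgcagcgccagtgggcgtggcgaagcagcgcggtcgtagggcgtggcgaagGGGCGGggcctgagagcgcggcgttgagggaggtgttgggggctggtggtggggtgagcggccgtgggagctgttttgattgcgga

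The motifs searched on both strands were TTCNNNGAA (the GAS element of STAT factors, which BA is known to activate), GAAANNGAA (part of an interferon response element), TTTGGCGC and TTTCCCGC (E2F sites), GGGCGG (known as the GC box) and TATAAA (known as the TATA box). The GAS letters were found in the Casp12 sequence only, among these 8 genes, at positions -102 to -94 and -36 to -28 relative to the start, both times as TTCTGGGAA. They occur in 8.30% of all 32851 promoters of the same length. The GC box is in 35.7% of all promoters, and 4 copies stand upstream of Casp9. The promoters of Casp6, Casp2 and Apaf1 also held a GC box, and those of Casp1, Casp4, Casp8 and Casp12 did not. The Casp8 promoter, chr1:58802252-58802551, lies inside the gene, which starts at 58795374. The region before that first base was not searched, so the motifs and GC content of Casp8 describe an internal start only. Casp2 alone held TTTCCCGC, which overlaps a GC box and occurs in 1.07% of promoters. The interferon letters (8.56% of all promoters), TTTGGCGC (0.514%) and the TATA letters (13.6%) matched none of the 8. The GC content was 66.0% for Casp9, 63.7% for Casp2, 62.0% for Casp6 and 74.7% for Apaf1, against values from 41.0% for Casp12 to 48.0% for Casp1, with Casp4 and Casp8 in between (median of all promoters 52.7%). A match to letters is a description, not evidence of a bound site.

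Casp4, the gene also known as caspase-11, senses lipopolysaccharide inside the cell and starts the noncanonical inflammasome. Its read count was 381 in the week-0 library, which is an FPKM of 12.4, and 116 in the week-3 library, an FPKM of 6.16. The ratio of 0.498 (interval 0.401 to 0.614), a log2 ratio of -1.01, is just beyond the limit of 0.5. The call ends with a pseudocount of 0.1 or 1 on the FPKM (log2 ratio -0.99 and -0.90) and in edgeR's exact test with an assumed coefficient of variation of 0.4. Casp1, the caspase of the canonical inflammasome, had 109 and 112 reads and an FPKM of 11.5 and 19.2. Although its raw reads were alike, the week-3 library was the shallower of the pair, and the ratio was 1.68 (interval 1.28 to 2.21), under the limit of 2. Casp12, which is linked to the endoplasmic reticulum and to inflammation, had 36 and 31 reads and an FPKM of 0.959 and 1.35. Its ratio of 1.41 had an interval from 0.842 to 2.34, so no difference was detectable at this depth.

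The make-up of the cluster does not depend on how the libraries are scaled. At week-0 Casp4 gave 72.4% of the 526 reads on the 3 genes (exact 95% interval 68.4 to 76.2), and at week-3 it gave 44.8% of 259 reads (38.6 to 51.1). Casp1 went from 20.7% (17.3 to 24.4) to 43.2% (37.1 to 49.5). Casp12 had 6.84% (4.84 to 9.35) and 12.0% (8.28 to 16.6), with intervals that overlap, although an overlap does not show that the shares are equal. The ratio of Casp1 between the time points was 3.37 times that of Casp4 (interval 2.38 to 4.79, from the conditional odds ratio), and the ratio of Casp12 was 2.83 times that of Casp4 (1.61 to 4.92). Casp1 and Casp12 differed by 1.19 times (0.665 to 2.15), which includes no difference. These 3 pairs, and the 3 pairs of Casp9 below, were chosen after the values had been seen. No exact stretch of 50 bases of a Casp1, Casp4 or Casp12 transcript occurs in a transcript of another gene in GENCODE M21. Stretches that differ by a few bases were not searched, although the authors allowed 2 mismatches in mapping. Outside the cluster, Casp8 shared 4.37% of its stretches with Gm20257 and Apaf1 0.351% with several genes.

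**Figure D2:**
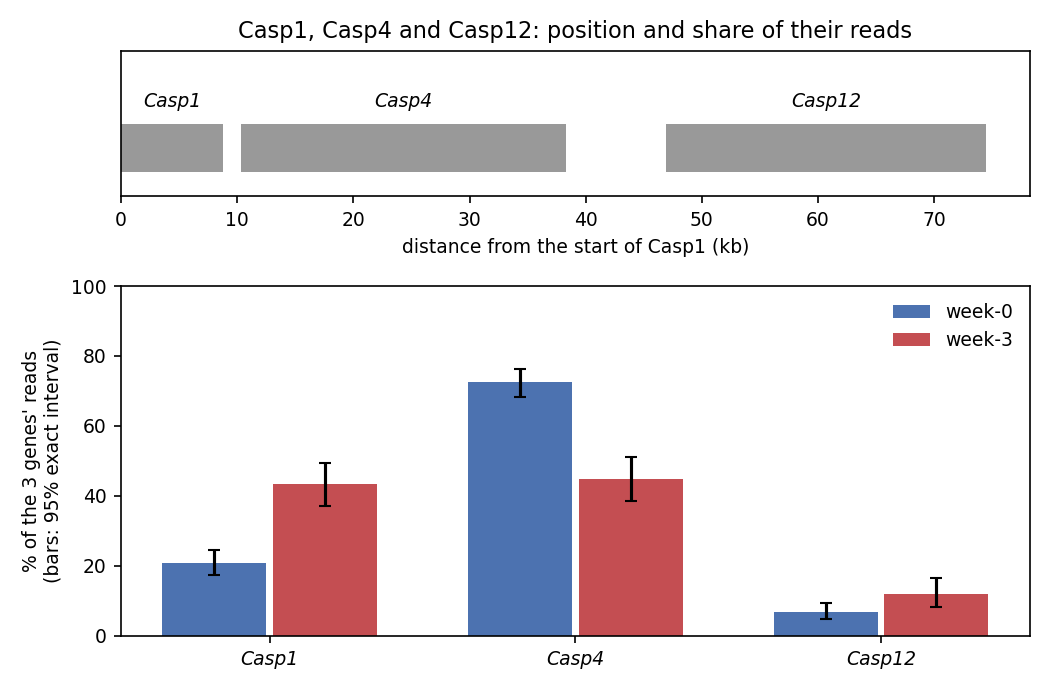
Top, the 3 genes drawn to scale by their distance from the start of Casp1 (x axis, kb). Bottom, the share of the reads on the 3 genes that each took (y axis, percent) at week-0 and week-3, with exact 95% intervals. Casp4 goes from 72.4% to 44.8% and Casp1 from 20.7% to 43.2%.

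Apaf1 (ENSMUSG00000019979, minus strand of chromosome 10, from 90989311 to 91082770) forms the scaffold of the apoptosome. Its read counts were 150 and 91, with FPKM values of 1.55 and 1.54 and a ratio of 0.992 (interval 0.756 to 1.30). Casp9 (ENSMUSG00000028914, plus strand of chromosome 4, from 141793612 to 141815976), the initiator that Apaf1 recruits, had the lowest FPKM of the 8 genes in both libraries. The week-0 library held 29 of its reads and the week-3 library 36, with FPKM values of 0.602 and 1.22 and a ratio of 2.03 (interval 1.21 to 3.43). With so few reads the size of this difference is loosely known, and with TMM scaling the log2 ratio was 0.91 in place of 1.02, under the limit. Relative to Apaf1, its partner, Casp9 was 2.05 times higher at week-3 than at week-0 (interval 1.13 to 3.71), relative to Casp8 1.88 times (1.10 to 3.25) and relative to Casp2 2.28 times (1.32 to 3.95). The end of Casp9 shares 1015 bases with Cela2a and with Ctrc on the other strand, and both of these genes had 0 reads in both libraries.

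Casp8 (ENSMUSG00000026029, plus strand of chromosome 1, from 58795374 to 58847503), the initiator at death receptors and a brake on necroptosis, had the highest FPKM of the 8 genes in both libraries. Its 467 and 308 reads gave an FPKM of 19.8 and 21.3 and a ratio of 1.08 (interval 0.931 to 1.25). The transcript Gm37760, annotated within the Casp8 locus on the same strand, had 67 and 71 reads of its own. Casp2 (ENSMUSG00000029863, plus strand of chromosome 6, from 42264985 to 42282508), the PIDDosome protease, had 429 and 234 reads and an FPKM of 6.55 and 5.84. Its ratio was 0.892 (interval 0.757 to 1.05), and with TMM scaling its log2 ratio of -0.28 had an interval wholly below equal levels (-0.51 to -0.04). Casp6 (ENSMUSG00000027997, plus strand of chromosome 3, from 129901425 to 129914103), an executioner that cleaves lamins, had 250 and 147 reads, an FPKM of 6.46 and 6.22 and a ratio of 0.962 (interval 0.779 to 1.18). For Casp8, Casp2, Casp6 and Apaf1 the counting intervals leave room for ratios between 0.756 and 1.30. Neither a doubling nor a halving of the level in these libraries lies within these intervals, which may be too narrow, as said above.

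**Figure D3:**
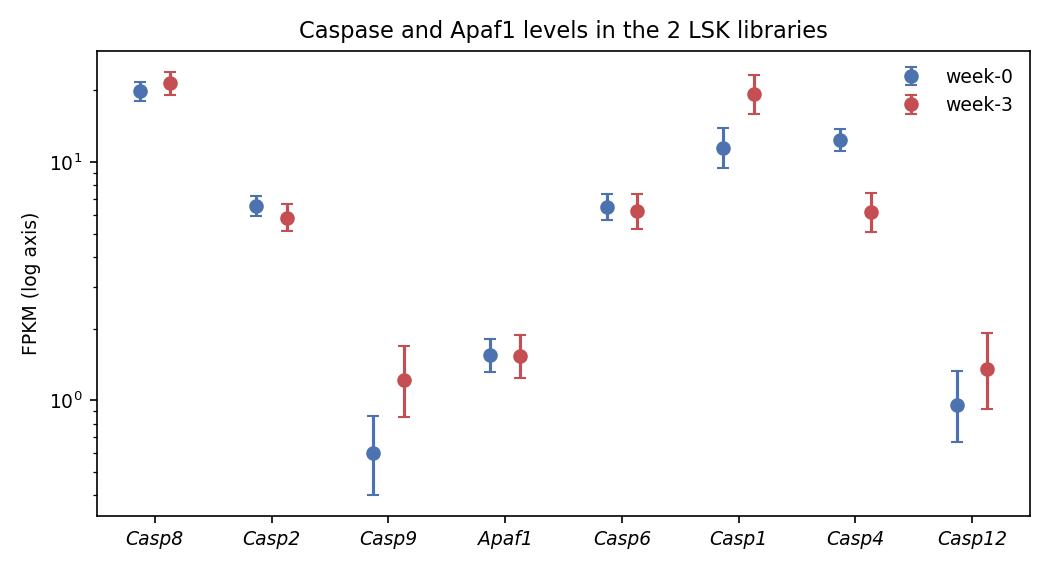
FPKM (y axis, log scale) of the 8 genes at week-0 and week-3, with exact 95% Poisson intervals of the read count as bars. Casp8 is the highest and Casp9 the lowest in both libraries, and the bars of the time points are apart for Casp1 and Casp4 and meet for Casp9.

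The order of the FPKM at week-0 was Casp8, Casp4, Casp1, Casp2, Casp6, Apaf1, Casp12 and Casp9. The counting intervals overlapped between Casp4 and Casp1, Casp2 and Casp6, Apaf1 and Casp12, and Casp12 and Casp9. At week-3 the order was Casp8, Casp1, Casp6, Casp4, Casp2, Apaf1, Casp12 and Casp9. There the intervals were apart only between Casp1 and Casp6 and between Casp2 and Apaf1. By the deposited FPKM, Casp1 and Casp4 were thus next to each other at week-0. At week-3, by the same measure, Casp1 stood with Casp8 and Casp4 with Casp6 and Casp2. These levels rest on the exon length behind the deposited FPKM, which for all 8 genes equals the summed length of every distinct exon in GENCODE M21, with overlapping exons counted each time. That length is 1497 bases for Casp1, which has 1 annotated transcript, and 15236 bases for Apaf1, which has 8 and whose merged exons cover 9028. Per kilobase of merged exons, Apaf1 had 2.61 RPM at week-0 and 2.59 RPM at week-3, Casp9 0.878 and 1.78, Casp4 16.2 and 8.04 and Casp8 25.4 and 27.4. The order then stayed as it was at week-0, and at week-3 it was Casp8, Casp1, Casp2, Casp4 and Casp6 at the top. Per kilobase of the transcript with the longest coding sequence, Casp4 came first at week-0, with 41.8 against 39.7 for Casp8, and Casp1 (11.5) came after Casp6 and Casp2. At week-3 the order by this measure was Casp8, Casp6, Casp4, Casp1 and Casp2, with Casp4 at 20.8 and Casp1 at 19.2. Which genes stand next to each other therefore depends on the length used. The ratios between the time points do not depend on this length.

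The partners of these proteases were taken from lists of genes outside the 8. Over the 67 listed genes with at least 10 reads, 8 were higher and 9 lower past the limit, against 10.5% and 14.9% of all genes. The intervals of 23 lay above equal levels and those of 21 below, against 31.7% and 27.3% of all genes. The median log2 ratio was 0.06, close to that of all genes. The same shares over all genes apply to every list below. An interval excludes equal levels more readily when a gene has more reads, and these shares are not matched to the reads of any list.

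In the list of apoptosome and mitochondrial cofactors, 2 of 9 genes were higher past the limit and 0 lower, against 10.5% and 14.9% of all genes. The intervals of 7 of 9 lay above equal levels and that of 1 below, against 31.7% and 27.3% of all genes. The 1 below was Diablo, which encodes an antagonist of caspase inhibitors and is named after its values were seen (448 and 195 reads, ratio 0.712, interval 0.599 to 0.844). The list's median log2 ratio was 0.70. Aifm1, which encodes a flavoprotein of the mitochondrial intermembrane space, went from 156 to 212 reads (log2 ratio 1.15), and Endog, a mitochondrial nuclease, from 21 to 29 (1.18). Bax, a pore-forming effector, had the highest FPKM of the list, 168 and 274 (log2 ratio 0.70, interval 0.57 to 0.84), followed by the chaperonin gene Hspe1 with 81.2 and 156 (0.95, interval 0.82 to 1.08). Cycs, the cytochrome c gene, named after its values were seen because it is the trigger of Apaf1, had 1683 and 1974 reads (0.94, interval 0.85 to 1.03). The log2 ratio of Apaf1 itself was -0.01 (interval -0.40 to 0.37).

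Among 6 caspase inhibitors, 0 were higher and 1 lower past the limit, against 10.5% and 14.9% of all genes. The intervals of 3 lay above equal levels and that of 1 below, against 31.7% and 27.3% of all genes, and the median log2 ratio was 0.16. Birc3, an inhibitor of apoptosis that NF-kappaB induces, went from 618 to 115 reads (log2 ratio -1.72, interval -2.02 to -1.43). Birc5 (survivin) had the highest FPKM of this list, 43.0 and 56.3 (0.39, interval 0.26 to 0.52). Of 14 death receptor and necroptosis genes with enough reads, 2 were higher and 1 lower past the limit. In this list the intervals of 5 genes lay above equal levels and those of 3 below. Bid, which Casp8 cleaves to link death receptors to mitochondria, went from 228 to 354 reads (1.34, interval 1.10 to 1.59). Mlkl, the effector of necroptosis, had 109 and 148 reads (1.15, interval 0.78 to 1.52). Tnfrsf10b, the TRAIL receptor, had 103 and 16 reads (-1.98, interval -2.84 to -1.21). The most abundant genes of this list by FPKM were Ripk3, the kinase that activates Mlkl (43.6 and 44.2), and Tnfrsf1a, a TNF receptor (31.9 and 19.3; log2 ratio -0.72). Of the 3 PIDDosome partners of Casp2 none passed the limit, and the most abundant were Cradd (FPKM 6.39 and 5.46) and Mdm2 (4.86 and 3.31).

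The inflammasome list, the partners of Casp1 and Casp4, had 15 genes with enough reads and a median log2 ratio of -0.02. Of these, 2 were higher and 3 lower past the limit, against 10.5% and 14.9% of all genes. The intervals of 3 lay above equal levels and those of 4 below. The sensor gene Nlrp3 went from 549 to 27 reads (-3.64, interval -4.25 to -3.08). The Casp1 substrates Il1b and Il18 went from 144 to 24 reads (-1.88, interval -2.56 to -1.25) and from 100 to 18 (-1.76, interval -2.58 to -1.03). Naip2, a sensor of bacterial secretion systems, had 15 and 28 reads (1.61) and Mefv, which encodes pyrin, had 2 and 20 (4.03, interval 1.99 to 7.17). The gasdermin D gene Gsdmd (FPKM 28.5 and 34.2; log2 ratio 0.26) and the adaptor gene Pycard (16.3 and 16.1; -0.02) were the most abundant. Casp1 therefore had a higher ratio than its adaptor Pycard, whereas Nlrp3 and both interleukin genes had lower ones. Markers of macrophages, neutrophils, dendritic cells, mast cells and basophils, B and plasma cells, erythroid cells and LSKs also differed between these libraries, as given above. Their part was not tested.

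Among 12 substrates and nucleases downstream of the executioners, 2 were higher and 1 lower past the limit, against 10.5% and 14.9% of all genes. The intervals of 5 lay above equal levels and those of 6 below. Lmna, the gene of lamin A, which Casp6 cleaves, went from 5343 to 188 reads (log2 ratio -4.12, interval -4.34 to -3.91). Lmnb1, the other lamin gene of the list, is named after its values were seen. It had 521 and 359 reads (0.17, interval -0.03 to 0.37), so the lamin genes did not share a ratio. Xkr8, a phospholipid scramblase that caspases activate, had 21 and 45 reads (1.81), and Dfna5, the gasdermin E gene, had 479 and 608 (1.05, interval 0.88 to 1.23), past the limit with scaling by total reads but not with TMM or median-of-ratios. Bcap31 was the most abundant by FPKM (245 and 225; log2 ratio -0.13). Of 8 endoplasmic reticulum stress genes, listed because of Casp12, 0 were higher and 3 lower past the limit, with a median log2 ratio of -0.63. The intervals of 0 of them lay above equal levels and those of 5 below, against 31.7% and 27.3% of all genes. The stress transcription factor gene Ddit3 went from 1477 to 83 reads (-3.44), Atf4 from 3187 to 864 (-1.17) and the chaperone gene Dnajb9 from 830 to 168 (-1.60). Hspa5, the chaperone BiP, had an FPKM of 183 and 134 (-0.44, interval -0.50 to -0.39).

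**Figure D4:**
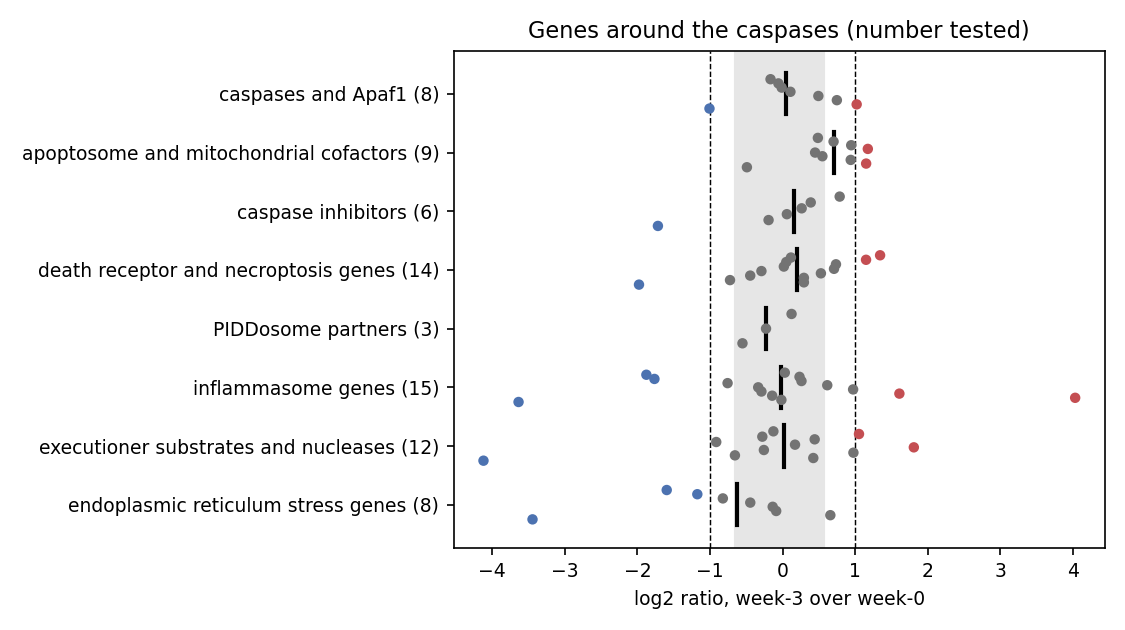
Log2 ratio of week-3 over week-0 (x axis) of each gene with at least 10 reads among the 8 genes (caspases and Apaf1) and in the lists around them (rows, with the number of genes). Red and blue points are higher and lower past the limit, black bars are medians and the grey band spans the quartiles of all genes tested. The mitochondrial cofactors have a median of 0.70 and the endoplasmic reticulum stress genes of -0.63, while that of the caspases and Apaf1 is 0.05.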

How the data were processed

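RNA-seq of BM LSKs covered the week-0 and week-3 time points, with 1 library each, pooled from 3 mice. The authors mapped trimmed paired-end reads to GRCm38 with TopHat2 2.0.9, a version that the submitters' processing notes also give. The counting tool and annotation release are not given in the sources used here. The authors deposited counts, as whole reads per gene without normalization, and FPKM, scaled by exon length and by the reads on genes.

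Reads were scaled by the total on genes (6356164 and 3886695). This gives the ratios of the deposited FPKM, within rounding. Genes with at least 10 reads over both libraries entered every count. No p-value is given, because 1 library per group allows no test of the condition. Alternatives used TMM (edgeR 4.0.16), size factors (DESeq2 1.42.0), an edgeR exact test with a fixed variation, pseudocounts and other filters; 2 other length measures were chosen after seeing the data. FPKM lengths were compared with GENCODE M21: over 11190 genes with at least 20 reads at week-0, 67.6% equalled the summed distinct exons within 0.1%. Python 3.11.15, scipy 1.17.1, R 4.3.3 and matplotlib 3.10.9 were used.

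The 8 genes and the lists were chosen with earlier results of these data known. Named genes are the 8, every list gene past the limit and the 2 with the highest mean FPKM of each list; a few listed genes are not reported here. Marker lists covered LSKs, macrophages and monocytes, neutrophils, mast cells and basophils, B and plasma cells, T and NK cells, erythroid cells and dendritic cells.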

Additional observations from a re-analysis of the deposited data

How the results depend on the processing

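Scaling moved all log2 ratios down together, by 0.11 with TMM and 0.09 with median-of-ratios. With either, 0 of the 8 genes were higher past the limit in place of 1, since Casp9 came to 0.91 and 0.93, and Casp4 was still lower, at -1.12 and -1.10. The number of intervals below equal levels went from 1 to 2 with both scalings, through Casp2. The median log2 ratio of the 8 genes was -0.06 and -0.04 in place of 0.05, and that of the substrates and nucleases, 0.02, also changed sign (-0.09 and -0.07); in that list Dfna5 left the limit and Panx1 passed it. With a limit of 1.5 in place of 2, the number higher was 2, with Casp1 added. In edgeR's exact test with an assumed coefficient of variation of 0.1, 0 genes were higher and 1 lower, and with 0.4 both numbers were 0. With a pseudocount of 1 on the FPKM the log2 ratio of Casp9 was 0.47 and that of Casp4 -0.90; with 0.1 they were 0.91 and -0.99, all under the limit. No call changed with only genes above 0 in both libraries or with at least 50 reads. No paired analysis was possible because each time point has 1 library. A count of 3 reads, the smallest taken as a floor, is 0.472 RPM for week-0 and 0.772 RPM for week-3, and the rare members, Casp9 and Casp12, are limited by their 65 and 67 reads.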
